A study of Mus musculus with 10 samples.

Results

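The genes that make, store and break down histamine and serotonin were followed in mouse bone marrow cells that over-express forms of ASXL2, a chromatin protein of the Polycomb and trithorax group. The members were chosen by gene symbol: Hdc, Tph1, Ddc, Slc18a2, Maoa and Maob, which are 6 of the 47311 genes in the libraries. All 6 were among the 17810 genes with enough counts to be tested.

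The series holds 10 polyA RNA libraries from Lin-Kit+ bone marrow cells, which are cells without markers of mature lineages that carry the stem cell factor receptor. The cells were grown in medium with IL3, IL6 and SCF in every group, and GFP+ cells were sorted and expanded before RNA was extracted. An empty vector, full-length (WT) Asxl2, or 1 of the constructs Mutant1, Mutant2 and Mutant3 of Asxl2 was expressed, with 2 libraries in each of the 5 groups. The labels name the mutants by number only and do not give the promoter of the vector, the age or strain of the mice, or whether replicates were grown as separate cultures. A p-value here is therefore set by the scatter of these libraries, and that scatter may be technical.

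Batch was read from the name under which each library was deposited. Names that end in a hyphen and a 2 were taken as batch 2, and all other names as batch 1. In 4 mutant libraries the mutant number in the deposited name differs from the label, and in 2 of them the batch differs too. Groups follow the labels, batch follows the deposited name, and the 6 mutant libraries were pooled as 1 class. Going by the names, the pair labelled mutant 1 falls wholly in batch 1 and the pair labelled mutant 3 wholly in batch 2, so a difference between these labelled pairs and a batch difference cannot be told apart from their own libraries. Going by the mutant number in the names as well, each number has 1 library in batch 1 and 1 in batch 2. Totals ranged from 52422686 to 79320702 estimated counts per library. Asxl2 itself stood between 107 and 111 CPM (counts scaled to the size of the library) with the empty vector and between 790 and 1892 CPM in the 8 construct libraries.

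Histamine is made from histidine by histidine decarboxylase, the product of Hdc. Serotonin is made from tryptophan in consecutive steps, by tryptophan hydroxylase (Tph1 outside the brain) and then by aromatic L-amino acid decarboxylase (Ddc), which also makes dopamine. Both amines are loaded into secretory granules by the vesicular monoamine transporter VMAT2 (Slc18a2), which exchanges them for protons supplied by the vacuolar proton pump. Serotonin is oxidised at the mitochondrial membrane by the monoamine oxidases (Maoa, Maob), while histamine is first methylated by Hnmt or oxidised by Aoc1. Mast cells and basophils are the main histamine stores of the blood system, and rodent mast cells store serotonin as well.

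The expanded cells carried mast cell transcripts at high levels. The summed level of 8 mast cell markers lay between 52652 and 65580 TPM (a share of all transcripts, scaled by transcript length), with Cpa3, Cma1 and Fcer1a among the highest and Tpsab1 at 0.155 TPM in its lowest library. The basophil proteases Mcpt8 (1.66 TPM at the lowest) and Prss34 (2.57 TPM) were much lower than the basophil and mast cell receptor Cd200r3 (512 TPM). Of the 8 stem and progenitor markers 5 averaged 10 TPM or more (Kit, Ly6a at 1436 TPM, Cd34 at 254, Cd48 at 87.8 and Meis1 at 36.2), while Flt3 and Slamf1 averaged 0.0082 and 0.0592 TPM. In bulk RNA, fewer cells of a type and less RNA per cell cannot be told apart.

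Promoter windows are printed here because Tph1 and Ddc each have a pair of annotated RNA starts and because Hdc was the member with the largest difference from the empty vector. Each run gives the 250 bases before a RefSeq start (GRCm38.p6, the build called mm10), 5′ to 3′ on the gene's strand, with motif matches in capitals.
Hdc, chr2:126618679-126618928, minus strand: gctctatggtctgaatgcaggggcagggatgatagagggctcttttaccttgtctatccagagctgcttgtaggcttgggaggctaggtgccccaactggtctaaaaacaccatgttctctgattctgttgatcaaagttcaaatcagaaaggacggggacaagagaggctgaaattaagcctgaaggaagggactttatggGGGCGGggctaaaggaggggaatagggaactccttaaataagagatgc
Tph1 downstream start, chr7:46667378-46667627, minus strand: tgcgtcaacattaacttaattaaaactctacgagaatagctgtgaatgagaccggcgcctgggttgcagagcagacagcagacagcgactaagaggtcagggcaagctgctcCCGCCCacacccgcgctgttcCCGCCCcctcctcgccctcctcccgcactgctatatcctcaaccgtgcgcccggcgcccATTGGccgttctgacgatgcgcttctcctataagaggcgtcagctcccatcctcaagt
Tph1 upstream start, chr7:46672538-46672787, minus strand: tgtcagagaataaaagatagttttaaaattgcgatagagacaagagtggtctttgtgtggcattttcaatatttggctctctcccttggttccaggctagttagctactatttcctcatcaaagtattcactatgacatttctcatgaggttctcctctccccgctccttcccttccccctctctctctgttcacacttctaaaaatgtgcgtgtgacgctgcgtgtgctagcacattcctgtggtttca
Ddc downstream start, chr11:11890409-11890658, minus strand: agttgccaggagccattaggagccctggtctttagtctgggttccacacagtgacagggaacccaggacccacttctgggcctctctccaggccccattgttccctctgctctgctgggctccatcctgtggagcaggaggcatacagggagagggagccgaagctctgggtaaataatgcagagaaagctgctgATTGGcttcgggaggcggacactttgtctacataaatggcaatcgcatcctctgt
Ddc upstream start, chr11:11898145-11898394, minus strand: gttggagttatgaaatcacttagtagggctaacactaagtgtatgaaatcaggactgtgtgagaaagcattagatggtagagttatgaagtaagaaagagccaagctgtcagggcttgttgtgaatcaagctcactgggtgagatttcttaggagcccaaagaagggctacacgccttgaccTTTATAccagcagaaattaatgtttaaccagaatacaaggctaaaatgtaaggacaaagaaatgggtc

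Both strands were searched for 7 motifs. Binding sites of GATA-family factors were searched as AGATAA (present in 9.99% of windows) with its variant, spelled TGATAA (7.94%). E-boxes were searched as CACATG (12.25%) with the palindrome, spelled CACGTG (6.02%). The general promoter elements were CCAAT, the GC box with the letters GGGCGG, together with the TATA box, spelled TATAAA. No matches overlapped. A GC box began 48 bases before the Hdc start, and such a box was present in 32.74% of 32851 windows of this length. The downstream Tph1 start had a CCAAT box on the opposite strand (printed ATTGG) 58 bases upstream and 2 GC boxes on the opposite strand (printed CCGCCC), 138 and 117 bases upstream. The downstream Ddc start had a CCAAT box on the opposite strand 55 bases upstream, and 33.85% of windows held a CCAAT box. The upstream Ddc window held TATAAA on the opposite strand (12.37% of windows), and the upstream Tph1 window held none of the 7 motifs. These matches describe the letters of the windows only.

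The transcript estimates placed most Tph1 and Ddc RNA at the downstream starts. Transcripts that begin within 150 bases of the downstream Tph1 start made up between 84.0 and 92.9% of the gene's TPM over the 10 libraries, and those of the upstream start between 0.437 and 0.853%. For Ddc the downstream start accounted for between 88.2 and 94.4% and the upstream start for between 0 and 3.15%. The annotated Hdc start accounted for between 75.6 and 91.7%, chiefly through the protein-coding transcript Hdc-201. For Tph1 and Ddc the ranges of the upstream and downstream starts did not overlap in any class.

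Levels of the members differed widely. Tph1 was the most abundant, at 4075 ± 675 TPM (SD over 10 libraries), and ranked 19 among 47233 gene symbols by mean TPM. Slc18a2 followed at 572 ± 162 TPM and Maob at 352 ± 22.2 TPM. Ddc stood at 20.6 ± 7.77 TPM, Hdc at 17.5 ± 6.48 TPM and Maoa at 0.84 ± 0.197 TPM. The order from Tph1 to Slc18a2 to Maob to Ddc, and from Hdc to Maoa, held in 10 of 10 libraries. Ddc and Hdc, neighbours in that order, overlapped: Ddc was above Hdc in 6 of 10 libraries. With only the transcript of highest mean TPM for each gene, the order of these means was reversed, with Hdc at 14.68 and Ddc at 10.29 TPM. The pair of monoamine oxidases was unequal in every library, with Maob at least 304 times and at most 567 times Maoa in TPM. The first serotonin enzyme also exceeded the other, with Tph1 between 91.7 and 533 times Ddc in TPM.

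**Figure D1:**
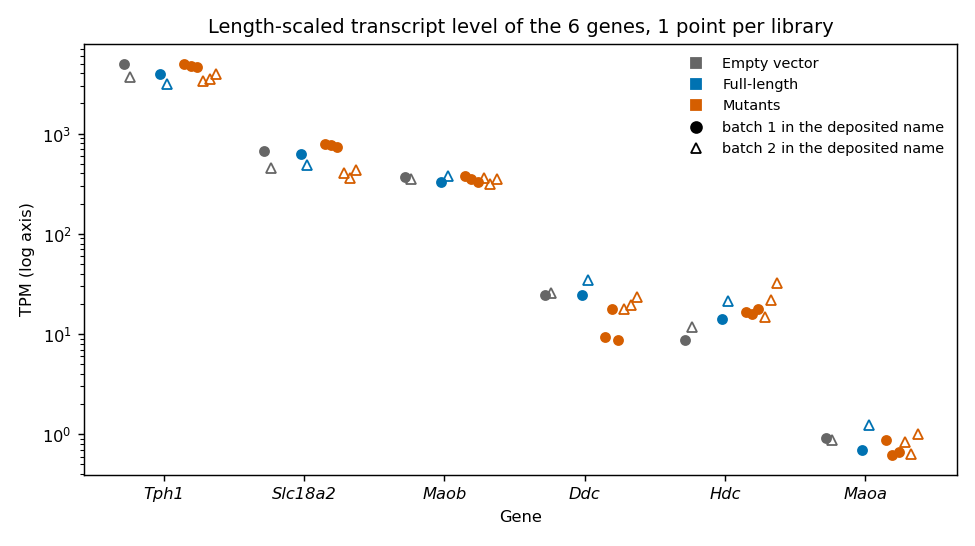
TPM on a log axis for each gene, 1 point per library, with class by colour and batch in the deposited name by filled circle (1) or open triangle (2). Tph1 sits between 3155 and 4994 TPM in every library, while Ddc and Hdc overlap between 8.64 and 34.4 TPM.

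Hdc, the histamine-forming enzyme (ENSMUSG00000027360, mm10 chromosome 2, 126593667 to 126619299, minus strand), was higher with the mutants than with the empty vector. It stood at 12.1 and 17.1 CPM in the empty vector libraries of batches 1 and 2 and at 21.5 and 31.3 CPM with full-length Asxl2. Mutant 1 libraries stood at 22.6 and 23.5 CPM, mutant 2 libraries at 28.0 and 25.1 CPM and mutant 3 libraries at 41.4 and 54.3 CPM. All 8 construct libraries thus lay above both empty vector libraries, and the mutant and full-length ranges overlapped. The share of all genes whose libraries separate in such a way was not counted, for Hdc or for the members below. The rise in the mutants was 2.2-fold (log2 1.14, SE 0.277, 95% interval 0.485 to 1.785), with an adjusted p of 0.0425 by edgeR's quasi-likelihood test with the batch of the name in the model. Hdc was the only 1 of the 6 members called in that comparison, in which 10.8% of all tested genes were called and 6.82% were called higher.

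The Hdc call is a narrow one. Within batch 1 the mean of 3 mutant libraries was 2.03 times the 1 empty vector library, and within batch 2 it was 2.36 times. The direction was thus the same in both. The mutant libraries ran from 22.6 to 28.0 CPM in batch 1 and more widely, from 25.1 to 54.3 CPM, in batch 2. The adjusted p was 0.206 without the batch term, 0.178 with the batch of the labels and 0.000712 by DESeq2. It stayed under 0.05 when mutant 2 replicate 2 (0.00416) or mutant 3 replicate 2 (0.0204) was left out. Without any 1 of the other libraries it lay above, at 0.273 and 0.223 for empty vector replicates 1 and 2, 0.0646 and 0.0694 for mutant 1, 0.0849 for mutant 2 replicate 1, 0.0703 for mutant 3 replicate 1, and 0.0772 and 0.077 for full-length. The log2 value stayed positive in 22 of 22 alternatives, between 0.85 and 1.31.

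With full-length Asxl2, which shares the empty vector libraries with the mutant comparison, Hdc was 1.77 times the empty vector in batch 1 and 1.84 times in batch 2. The fitted log2 value was 0.85 (SE 0.319, 95% interval 0.103 to 1.601) with an adjusted p of 0.205. It was called only when the other classes were left out of the fit (0.0178) or when mutant 2 replicate 2 was left out (0.0445). The difference between mutants and full-length was 0.28 on the log2 scale (interval -0.32 to 0.89), with an adjusted p of 0.769.

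By label, which the names contradict for 1 of the 2 mutant 3 libraries, Hdc stood 3.0-fold above the empty vector in mutant 3 (log2 1.58, SE 0.211, adjusted p = 0.00973 by edgeR in a fit of 5 groups; 0.0294 without the batch term). In that comparison 5.79% of genes were called. The log2 values were 0.82 in mutant 1 (adjusted p = 0.123, 2.2% of genes called) and 0.89 in mutant 2 (adjusted p = 0.0615, 4.22% called). A test for any difference among the mutants called 0 of 17810 genes by edgeR; 779 genes had an unadjusted p under 0.05, Hdc among them at 0.0282. Both mutant 3 libraries carry batch 2 in their names, and Asxl2 stood at 790 and 916 CPM in them against 1547 and 1892 CPM in mutant 1. The part of these in the order of the mutants was not tested. Grouped by the number in the names, with batch 1 before batch 2, Hdc stood at 22.6 and 25.1 CPM for number 1, at 23.5 and 41.4 CPM for number 2 and at 28.0 and 54.3 CPM for number 3. Number 2 then overlapped both others, while numbers 1 and 3 did not overlap, and no fold or test is given for that grouping because groups follow the labels.

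Tph1 and Ddc, which act in turn to make serotonin, did not follow Hdc. Tph1 (ENSMUSG00000040046, chromosome 7, 46644641 to 46672537, minus strand) stood at 5205 and 4611 CPM with the empty vector and at 4587 and 3698 CPM with full-length Asxl2. The 6 mutant libraries lay between 4539 and 5246 CPM, with a median of 4952. Both full-length libraries were below both empty vector libraries, and each mutant library was above the full-length library of its batch. How many of all genes show such an order was not counted. Full-length against empty vector gave a log2 value of -0.25 (SE 0.0736, adjusted p = 0.0853 by edgeR), and mutants against full-length 0.26 (SE 0.061, adjusted p = 0.108). DESeq2 called both, with adjusted p of 0.0109 and 0.00206. Mutants against empty vector gave 0.01 (95% interval -0.12 to 0.14).

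Ddc (ENSMUSG00000020182, chromosome 11, 11814101 to 11898144, minus strand) was lowest in mutant libraries. It stood at 22.5 and 24.2 CPM with the empty vector and at 24.6 and 32.5 CPM with full-length Asxl2. The mutant libraries held 8.45 and 16.6 CPM (mutant 1), 8.64 and 19.1 CPM (mutant 2) and 21.4 and 23.6 CPM (mutant 3). Each of the 6 was below both full-length libraries and below the empty vector library of its own batch, while the ranges of mutants and empty vector overlapped. The log2 values were -0.60 against empty vector (SE 0.293, adjusted p = 0.259) and -0.86 against full-length (SE 0.286, adjusted p = 0.319), and neither passed edgeR's test.

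The Ddc values differed between batches of the mutants. Mutants averaged 0.499 times the empty vector in batch 1 and 0.882 times in batch 2, and the test of that difference gave a log2 value of 0.82 (SE 0.61) with an adjusted p of 0.756. The antisense gene 1700042O10Rik overlaps Ddc at 11868123 to 11885321 and reached 8.8 TPM. That overlap is of whole gene spans, and whether exons overlap was not checked. Without a stated strand setting, any reads from shared exons could not be told apart.

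The ratio of Hdc to Ddc, the decarboxylases of the set, was looked at beside several other ratios of members. Hdc over Ddc in TPM was 0.355 and 0.458 with the empty vector and 0.575 and 0.622 with the full-length construct. In mutant libraries it ran from 0.83 through a median of 1.24 to 2.08 and was above 1 in 4 of 6 libraries. The 3 ranges did not overlap, a pattern noticed in the data and given without a test. The share of gene pairs with such a pattern was not counted. Whether the ratio passed 1 depended on the unit and on the transcripts summed. In CPM, which is not scaled by transcript length, Hdc was above Ddc in every mutant library. It was below Ddc in the empty vector and full-length libraries. With only the transcript of highest mean TPM for each gene, Hdc averaged 14.68 and Ddc 10.29 TPM.

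**Figure D2:**
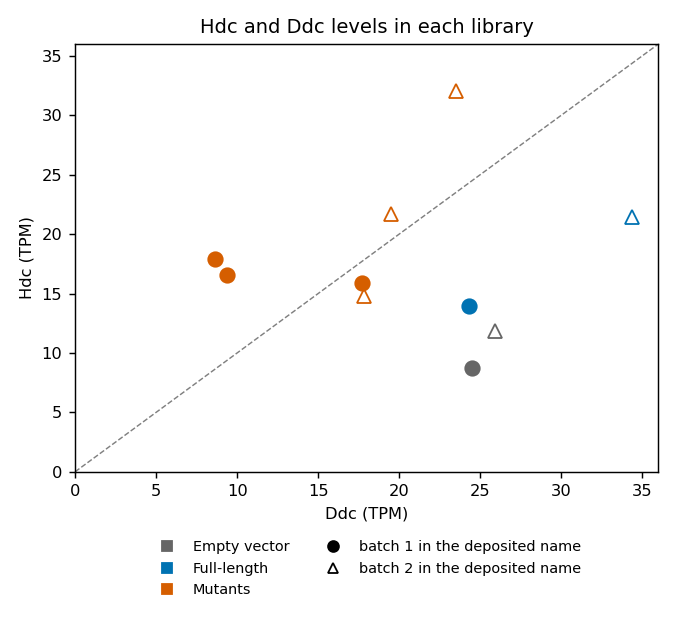
Hdc against Ddc in TPM, 1 point per library, coloured by class, with the dashed line marking equal levels. In TPM summed over transcripts, the 4 mutant libraries above the line have ratios from 1.11 to 2.08, and all empty vector and full-length libraries lie below it.

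Slc18a2, the granule transporter (ENSMUSG00000025094, chromosome 19, 59260896 to 59296012, plus strand), split by batch in every class and was not called in the pooled construct comparisons. It stood at 1767 and 1340 CPM with the empty vector in batches 1 and 2 and at 1825 and 1371 CPM with full-length Asxl2. The mutant libraries of batch 1 stood at 2059, 2067 and 2043 CPM, and those of batch 2 at 1307, 1217 and 1295 CPM. The 5 libraries of batch 1 were all above the 5 of batch 2. Batch 2 was lower by a fitted log2 value of -0.58 (SE 0.0553, adjusted p = 2.41e-05 by edgeR), while the construct comparisons gave 0.04 and 0.07 against empty vector (adjusted p = 0.869 and 0.599).

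Mutants were 1.16 times the empty vector for Slc18a2 in batch 1 and 0.95 times in batch 2. The test of whether the mutant effect differed by batch gave -0.29 (SE 0.1, unadjusted p = 0.0158, adjusted p = 0.349). By edgeR that test called 0 of 17810 genes, and 1761 had an unadjusted p under 0.05.

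The monoamine oxidases showed no construct difference past the test. Maob (ENSMUSG00000040147, X chromosome, 16709282 to 16817366, minus strand) stood at 584 and 637 CPM with the empty vector and at 573 and 645 CPM with the full-length construct. Mutant libraries ran from 551 through a median of 617 to 715 CPM. Its 95% intervals were -0.16 to 0.15 for full-length and -0.11 to 0.14 for mutants against empty vector on the log2 scale. Maoa (ENSMUSG00000025037, X chromosome, 16619698 to 16687818, plus strand) was the lowest member, at 2.66 and 2.9 CPM with the empty vector, 2.25 and 3.84 CPM with full-length Asxl2 and between 1.84 and 3.36 CPM in the mutants. Its intervals of -0.41 to 0.60 and -0.57 to 0.25 were wider.

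**Figure D3:**
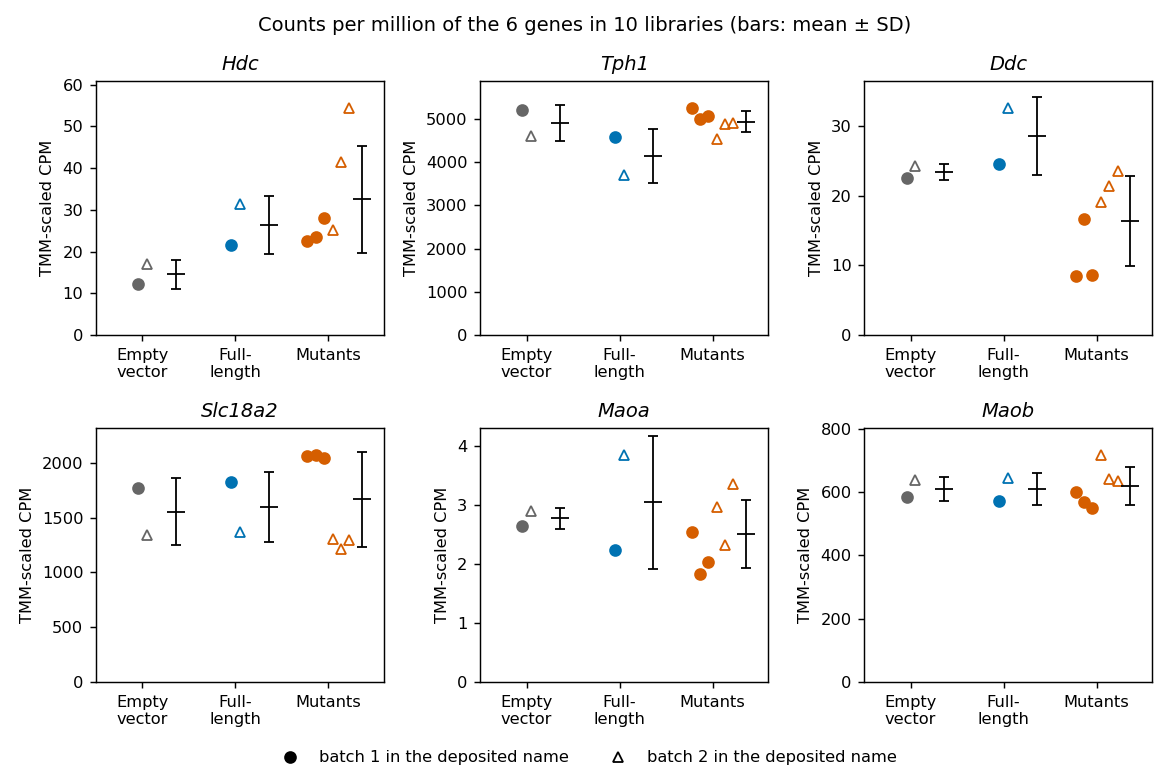
TMM-scaled CPM of each gene in the 10 libraries by class, with filled circles for batch 1 and open triangles for batch 2 of the deposited name and a bar for the mean and SD of the class. Hdc is higher in all 8 construct libraries than in both empty vector libraries, and Slc18a2 splits by batch in every class.

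Across members, 0 of 6 were called by edgeR for full-length against empty vector, where 5.07% of all genes were called. At an unadjusted p under 0.05 there were 2, Hdc (0.0309) and Tph1 (0.0063), beside 3385 of all 17810 tested genes. DESeq2 called 1 member, beside 1517 of all genes. For mutants against full-length, 0 of 6 were called where 0.399% of genes were. At an unadjusted p under 0.05 there were 2, Tph1 (0.00139) and Ddc (0.019), beside 2003 of all 17810 tested genes. DESeq2 called 1 member, beside 499 of all genes. The 3 class comparisons share libraries and are not independent.

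**Figure D4:**
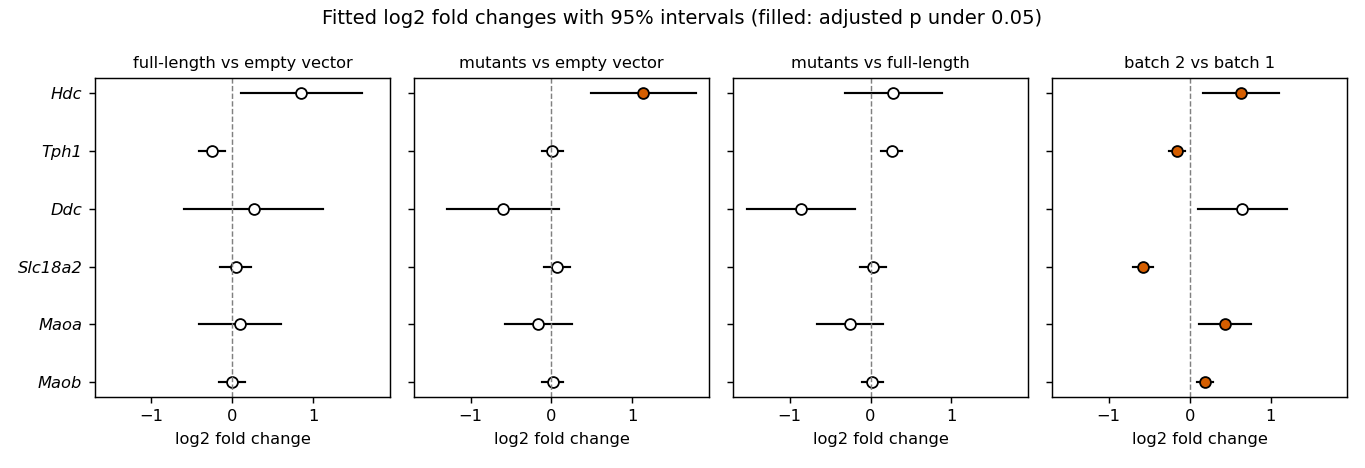
Fitted log2 fold changes of the 6 genes with 95% intervals for 3 class comparisons and for batch 2 against batch 1; filled points have an adjusted p under 0.05. Only Hdc is filled among the class comparisons, at 1.14 for mutants against the empty vector, and 5 genes are filled for the batch.

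Between batches 5 of the 6 members were called, against 52.4% of all tested genes, so most genes of the cells differed with them. Besides Slc18a2, Maob was higher in batch 2 (log2 0.19, adjusted p = 0.00533), with no overlap between the 5 and 5 libraries in CPM. In TPM its batch means were 351 and 352, and the value on log2(TPM + 1) was 0.0047. The unit mattered for other members too. TPM means of batches 1 and 2 were 4620 and 3529 for Tph1 and 717 and 427 for Slc18a2. They were 14.6 and 20.4 for Hdc, 16.9 and 24.2 for Ddc and 0.757 and 0.923 for Maoa. Hdc was higher in batch 2 by 0.63 (adjusted p = 0.0305), Maoa higher by 0.44 (0.0257) and Tph1 lower, at -0.15 (0.0165). These 3 calls were kept in 3, 4 and 5 of the 10 fits that left out 1 library. Hdc kept it only without mutant 2 replicate 1, mutant 2 replicate 2 or mutant 3 replicate 2, and its adjusted p otherwise reached 0.0712. Tph1 lost it without either empty vector library, either full-length library or mutant 1 replicate 1 (adjusted p up to 0.15). Maoa lost it without either full-length library, either mutant 2 library, mutant 1 replicate 2 or mutant 3 replicate 2 (up to 0.0839). Ddc stood at 0.65 (adjusted p = 0.0503) and was called without empty vector replicate 1 (0.0445), empty vector replicate 2 (0.0473) or mutant 1 replicate 2 (0.0265). DESeq2 called it too (0.0172), as did edgeR with DESeq2's size factors (0.0461), while with no filter on low counts the Hdc call was lost (0.0608). With the batch of the labels in place of that of the names, 0 of 6 members and 0 genes in all were called between batches.

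Among the genes of the surrounding pathway, the enzymes and carriers that clear histamine were scarcely detected. All 6 genes of histamine breakdown and transport were under 1 TPM on average, with Hnmt at 0.0405 TPM and Aoc1 listed at 0. Of the histamine receptors, Hrh4, which draws mast cells and eosinophils toward histamine, ran from 23.4 to 41.0 TPM and Hrh2 from 6.35 to 12.2 TPM. In mutants against empty vector 0 of the 3 tested receptors were called by edgeR and by DESeq2, with 1 at an unadjusted p under 0.05. By edgeR 10.8% of all 17810 tested genes were called there, and 4506 had an unadjusted p under 0.05. Between batches Hrh4 was lower in batch 2 (log2 -0.44, adjusted p = 0.000153) and Hrh1, at 0.195 TPM, higher (1.94, adjusted p = 0.00154).

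Serotonin receptors and uptake were low throughout. All 13 serotonin receptors averaged under 1 TPM. In mutants against empty vector 0 of the 4 tested were called by edgeR, where 10.8% of all tested genes were. DESeq2 called 1 of the 4, and 1 had an unadjusted p under 0.05 by edgeR, as had 4506 of all 17810 tested genes. The serotonin reuptake transporter Slc6a4 was lower in the mutants than with full-length Asxl2 (log2 -1.14, SE 0.189, adjusted p = 0.0364). It stood at 4.18 and 2.1 CPM with full-length Asxl2, at 2.3 and 1.11 CPM with the empty vector, and in the mutants at 1.83, 2.46 and 2.06 CPM in batch 1 and 0.669, 0.785 and 1.09 CPM in batch 2. Each mutant library was below the full-length library of its batch. For mutants against full-length edgeR called 0.399% of all tested genes. The neuronal hydroxylase Tph2 was listed at 0.

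Tph1 needs tetrahydrobiopterin, and all 8 genes of that cofactor's synthesis and recycling were tested. Pcbd1, the dehydratase that recycles the cofactor, was the 1 gene that rose in both comparisons with the empty vector. It stood at 1.53 and 2.41 CPM with the empty vector, at 3.0 and 5.02 CPM with full-length and between 4.33 and 6.81 CPM in the mutants. The log2 values were 1.01 (SE 0.252, adjusted p = 0.0428 by edgeR) and 1.37 (SE 0.22, adjusted p = 0.00327). List medians were 0.028 and -0.000735 beside medians of -0.019 and -0.0058 over all genes. Pcbd1 was 1 of 8 called in each comparison, where 5.07 and 10.8% of all tested genes were called. Gch1, which makes the first committed step, averaged 75.6 TPM and was higher in batch 2 (log2 0.53, adjusted p = 0.00053).

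The decarboxylases Hdc and Ddc use pyridoxal phosphate. Pdxk, the kinase that activates vitamin B6, averaged 47.4 TPM and the phosphatase Pdxp 8.8 TPM. Of 6 carriers of tryptophan and histidine, the large neutral amino acid carrier Slc7a5 fell in the mutants against the empty vector (log2 -0.27, adjusted p = 0.0493 by edgeR and 0.00733 by DESeq2), at 0.745 times the empty vector in batch 1 and 0.922 times in batch 2. The lysosomal histidine carrier Slc15a3 rose (2.2, adjusted p = 0.0209), although it reached only 0.406 CPM and DESeq2 gave it no adjusted p. These were 2 of 6 carriers, where 10.8% of all genes were called. In the vacuolar proton pump, which drives Slc18a2, all 16 genes were tested. With full-length Asxl2 Atp6v1a rose (0.22, adjusted p = 0.0437), and in the mutants Atp6v1b2 (0.20, adjusted p = 0.0428) and Atp6v1g1 (0.15, adjusted p = 0.0488) rose. That is 1 and 2 of 16, near the 5.07 and 10.8% of all genes called in these comparisons. At an unadjusted p under 0.05 by edgeR there were 8 and 6 of 16, beside 3385 and 4506 of all 17810 tested genes. DESeq2 called 4 of 16 with full-length, beside 1517 of all genes, and 2 in the mutants. List medians were 0.12 and 0.069 beside -0.019 and -0.0058 over all genes. Between batches 15 of the 16 pump genes were called and higher in batch 2, where 52.4% of all genes were called in either direction, with a median of 0.20 beside -0.041 over all genes, while Slc18a2 was lower.

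Downstream of the monoamine oxidases, the aldehyde dehydrogenase Aldh2 averaged 1059 TPM. Of the 5 tested genes of aldehyde oxidation 1, Aldh7a1, rose in the mutants (0.39, adjusted p = 0.0227 by edgeR). For mutants against empty vector 10.8% of all tested genes were called. Th, which makes the substrate of Ddc in dopamine synthesis, averaged 0.0093 TPM. Tryptophan and histidine breakdown by other routes (Ido1, Ido2, Tdo2, Hal) stayed under 1 TPM.

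**Figure D5:**
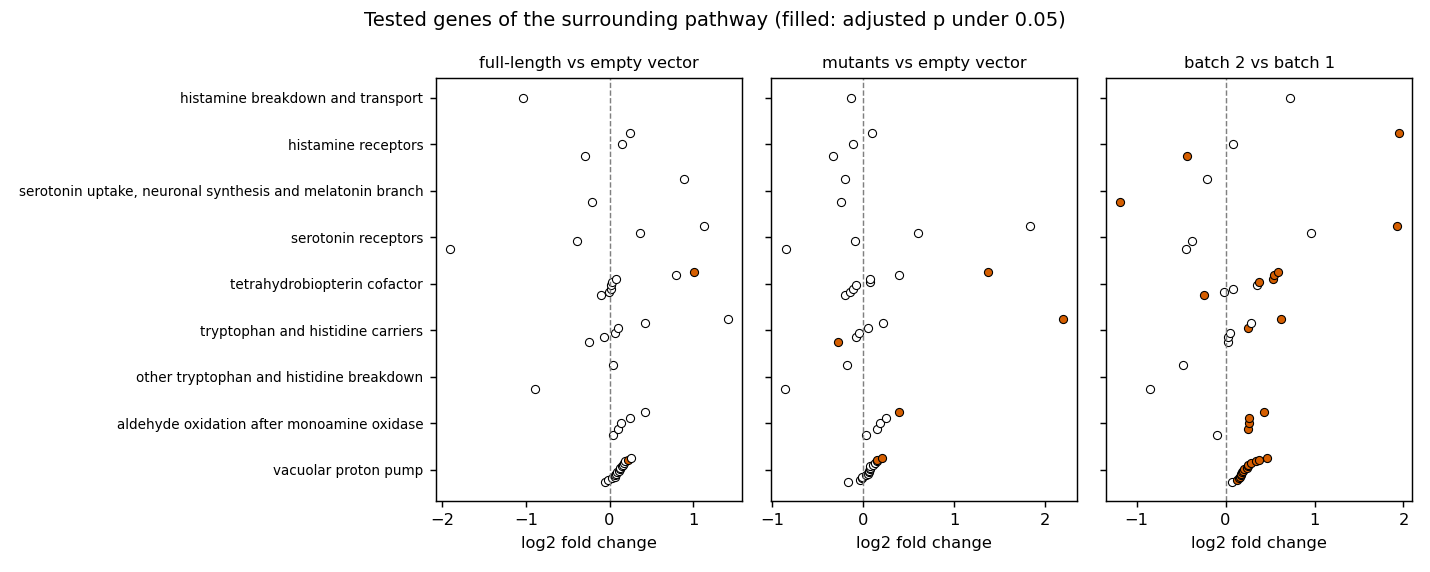
Log2 fold changes of the tested genes of the pathway lists shown for full-length and mutants against the empty vector and for batch 2 against batch 1, 1 point per gene; filled points have an adjusted p under 0.05. Few points are filled for the constructs, and 15 of 16 proton pump genes are filled and positive for the batch, in which 52.4% of all genes were called.

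Summed markers of the cell types that store histamine overlapped in range between classes. The summed level of the 3 basophil markers found was 566 to 579 TPM with the empty vector, 529 to 661 TPM with full-length and 541 to 642 TPM in the mutants, of which Cd200r3 alone made up 512 to 636 TPM over the 10 libraries. That of the mast cell markers was 57612 to 60778, 52652 to 65580 and 52852 to 58012 TPM in the same order. Its medians were 59195, 59116 and 53781 TPM, so the mutant median lay below both empty vector libraries. The highest mutant sum, 58012 TPM, was that of mutant 1 replicate 1. The sums were not tested. In mutants against empty vector edgeR called 10.8% of all 17810 tested genes and gave 4506 of them an unadjusted p under 0.05. It called 0 of 8 mast cell markers (1 at an unadjusted p under 0.05, 0 by DESeq2). Of 3 basophil markers edgeR called 0 (2 at an unadjusted p under 0.05, 1 by DESeq2). The 1 was the basophil protease Mcpt8, with a mean of 12.0 CPM in the empty vector and 4.46 CPM in the mutants. Its log2 value was -1.72, opposite in sign to that of Hdc, with an adjusted p of 0.0634 by edgeR and 0.0102 by DESeq2. Of the erythroid list Epor (log2 0.89, adjusted p = 0.00525) and Klf1 (0.84, adjusted p = 0.0236) rose in the mutants beside Hdc. Of the progenitor list Procr rose (3.2, adjusted p = 0.000285) and Cd34 fell (-0.39, adjusted p = 0.0339). These were 2 of 5 and 2 of 7 tested genes, where 10.8% of all tested genes were called. Procr averaged only 0.266 TPM with the empty vector and 1.86 TPM in the mutants. Klf1 stood at 0.618 and 1.02 TPM and Epor at 2.45 and 4.37 TPM in the same order. The summed erythroid markers overlapped, at 47.8 to 88.5 TPM with the empty vector and 57.5 to 142 TPM in the mutants. The part of these genes in the Hdc result was not tested. Between batches, where 52.4% of all genes were called, all 3 basophil markers were called and higher in batch 2, Mcpt8 by 1.82 (adjusted p = 0.00789) and Prss34 by 1.43 (adjusted p = 0.00899). In 1 library, mutant 1 replicate 1, neutrophil and eosinophil markers were higher than in the others; without it the mutants stood at 1.17 for Hdc (adjusted p = 0.0646), and at -0.48 for Ddc (adjusted p = 0.321) on the log2 scale.

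Over the 10 libraries, which share batch and culture, the genes most alike to each member in log2 CPM were ranked among 9626 genes by Pearson's r. Those nearest to Hdc were Sh3pxd2a (0.961), Tdrkh (0.934) and Sacm1l (0.932), and those nearest to Tph1 were Il2rg (0.966), Rabggta (0.964) and Arid5b (0.962). Ddc was closest to Heg1 (0.921), Trbv13-2 (0.913) and Bank1 (0.912). Slc18a2 was closest to Aim2 (0.996), Ythdf3 (0.99) and Psen2 (0.987), and Maob to Zfp518b (0.963), Fancf (0.958) and Psmg4 (0.954). Between members, the lowest r was -0.836, for Slc18a2 and Maob, and Hdc and Ddc stood at 0.058.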

How the data were processed

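PolyA RNA was measured in 10 libraries. The deposited estimated counts and TPM values per transcript were made by the authors with kallisto on mm10, per the submitters' processing notes (which also name DESeq2) and the file headers; their versions, the index and the strand setting were not given in the sources used here. Of 115088 transcripts, 114200 matched GENCODE M21 (GRCm38) and were summed per gene; matched transcripts held between 99.3 and 99.6% of counts. Summed counts were rounded and tested with edgeR 4.0.16 in R 4.3.3 (robust quasi-likelihood test, TMM, default filter with a minimum of 10 counts, Benjamini-Hochberg adjustment over 17810 genes, threshold 0.05) in 1 fit of 3 classes with the batch of the deposited name as a term. CPM are TMM-scaled. Kallisto divides reads among similar transcripts, so shares per start are estimates. Limma 3.58.1 on TPM and DESeq2 1.42.0 were alternatives.

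The members, gene lists and tests were chosen with earlier results of these data known. Named genes are the members, the 3 most alike genes per member of at least 5 CPM (prior count 2), and per list up to 4 genes past the threshold by smallest p or otherwise up to 3 of highest TPM; other genes named were chosen after their values were seen. Pairing comes from the batch in the name: differences between batches correlated at 0.525, 0.571 and 0.64 between class pairs. In simulated data with 200 changed genes, the fit of mutants against empty vector recovered 61.2% of 2-fold changes with 6 false calls over 17470 genes, and full-length against empty vector 56.7% with 11 over 17475. RefSeq promoter windows were found for 5 of 6 members (Maob had no entry in the table). Figures used matplotlib 3.10.9. Some genes of the lists are not reported here.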

Additional observations from a re-analysis of the deposited data

Results flagged for a closer look

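In the library mutant 1 replicate 1 the neutrophil markers summed to 8.64 TPM, while the other 5 mutant libraries lay between 0.583 and 0.919 TPM. In the same library the eosinophil markers summed to 14.7 TPM, with the others between 1.15 and 2.2 TPM. Both were flagged because 1 library lay far from the rest of its class by Dixon's criterion for 6 samples. These were 2 of 14 such checks, and chance flags about 1 in 20. The levels of the 6 members in that library lay within the range of the other libraries except for Tph1, the highest of the 10 at 5246 CPM, and Ddc, the lowest at 8.45 CPM.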

How the results depend on the processing

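Fits without the replicate block (the batch term) called 134 genes for full-length and 311 for mutants against empty vector, and 0 for mutants against full-length, in place of 903, 1925 and 71; the cause was not tested. DESeq2 called 1517 and 499 for full-length against empty vector and mutants against full-length. Over all alternatives the counts ran from 129 to 1517, from 311 to 2679, from 0 to 499, and from 0 to 9351 for the batch (9338). The members called for mutants against empty vector, 1 in the reported fit, came to 0 with no replicate block, with the block by the labels, with no filter, with limma on log2(TPM + 1) and on log2(TPM + 0.1), with the compared classes only, and with the libraries whose batch in the name matches the label (an alternative chosen after seeing the data); leaving out 1 library gave 0 to 1. For full-length against empty vector 0 became 1 with DESeq2 and with the compared classes only (0 to 1 over left-out libraries), and for mutants against full-length 0 became 1 with DESeq2. For the batch 5 became 6 with DESeq2 and with DESeq2's size factors in edgeR, 4 with no filter, 0 with the batch of the labels, 2 with limma on either TPM scale, 3 with TPM rescaled without Mir6236, 2 with libraries whose name matches the label, and 2 to 4 over left-out libraries.

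Values near 0 changed sign, with no call. On log2(TPM + 1), mutants against empty vector gave -0.054 for Tph1, -0.0017 for Slc18a2 and -0.053 for Maob, and mutants against full-length -0.011 for Slc18a2 and -0.020 for Maob. On log2(TPM + 0.1) these were -0.054, -0.0018, -0.053, -0.011 and -0.020. With TPM rescaled without Mir6236, mutants gave -0.0067 for Tph1 and -0.0057 for Maob against empty vector, and -0.0083 for Slc18a2 and -0.018 for Maob against full-length. Maob for full-length against empty vector was 0.012 there, 0.0062 with no filter, 0.00073 with the stricter filter, 0.00054 with the compared classes only and 0.00091 with matching names, where Maoa in the mutants was 0.072. Tph1 in the mutants was -0.00049 with the compared classes only. Without the replicate block mutant 1 gave 0.061 for Tph1 and -0.062 for Maob, and mutant 3 gave -0.0051 for Tph1, 0.032 for Maoa and 0.063 for Maob. Over left-out libraries, full-length against empty vector ran from -0.040 to 0.63 for Ddc, from -0.138 to 0.285 for Maoa, from -0.027 to 0.035 for Maob and from -0.078 to 0.17 for Slc18a2. Mutants against empty vector ran from -0.34 to 0.032 for Maoa, from -0.013 to 0.052 for Maob, from -0.041 to 0.20 for Slc18a2 and from -0.013 to 0.024 for Tph1, and mutants against full-length from -0.0087 to 0.034 for Maob and from -0.076 to 0.13 for Slc18a2. The median of all genes between batches moved from -0.041 to -0.198 on log2(TPM + 0.1). Maoa, at 114 to 262 counts per library, had the lowest depth of the members.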
